A study of Rattus norvegicus with 6 samples.

Results

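Autotaxin is a secreted enzyme, encoded by Enpp2, that cleaves lysophosphatidylcholine to lysophosphatidic acid (LPA), a lipid signal for cell migration, contraction and proliferation. LPA acts on G protein-coupled receptors of the Lpar genes and is dephosphorylated at the cell surface by lipid phosphate phosphatases of the Plpp genes, which end the signal. Autotaxin and LPA receptors are known in the synovium, where fibroblast-like synoviocytes make and respond to LPA. The 10 genes described here were taken by name from the 34156 genes of the count table. They are 3 enzymes of the ectonucleotide pyrophosphatase/phosphodiesterase (ENPP) family (Enpp1, Enpp2 and Enpp3), 5 LPA receptors (Lpar1, Lpar2, Lpar3, Lpar4 and Lpar6) and 2 lipid phosphatases (Plpp1 and Plpp3). Enpp2 was selected on its own counts in this comparison, because it was among the genes that fell most with emodin (EMO), an anthraquinone of rhubarb, so its difference between the groups is given as a description, without a test.

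Of 6 RNA-seq libraries of rat synoviocytes (RA-FLS, fibroblast-like cells bought as such and labelled as wild type with rheumatoid arthritis), 3 came from cells that received TNF-α at 10 ng/mL (TNF-α group) and 3 received TNF-α at 10 ng/mL with EMO at 80 μmol/L (TNF-α+EMO group). All 6 libraries therefore came from cells with TNF-α, and no library here shows these genes without it or with EMO alone. Below, "with TNF-α" means TNF-α alone and "with EMO" means TNF-α and EMO, and values after ± are SDs over the 3 libraries of a group. The labels give day 5 for the libraries, whereas the study's methods give 24 h of treatment. Nothing names separate animals for the replicates, so p-values measure the spread between these libraries, which may be technical.

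The libraries held 16813322 to 17794455 counts on genes. Across all 13614 genes tested, 27.8% were lower and 19.5% higher with EMO, 47.3% in all, as differentially expressed genes (DEGs). A DEG passed 0.05 by Benjamini-Hochberg adjusted p in the quasi-likelihood test of edgeR and had a log2 fold change (log2FC, EMO over TNF-α alone) beyond 1 in size. The groups did not overlap in 82.9% of the genes, 42.5% with EMO lower and 40.3% with EMO higher. Counts of the genes described here are to be read against this background. Of 9 fibroblast and synoviocyte markers, 5 were DEGs and lower with EMO, while Thy1, Pdpn and Prg4 had too few counts to test. The 5 include Fap (27, 42 and 27 counts with TNF-α and 0 in each library with EMO). Fap passed the filter on low counts (10 counts in 3 libraries) only through the TNF-α group, so the count of 5 is a description. The summed level of the 9 markers ranged over 188499 to 208989 normalized counts (counts scaled to a common library size by TMM) without EMO and 35094 to 37780 with it. Col1a1, Pdgfra, Cdh11 and Vim were abundant in the TNF-α group, but the synoviocyte markers Thy1, Pdpn and Prg4 held at most 7 counts in any library. Markers of other cells were low. Their summed levels with TNF-α and with EMO were 3.90 to 10.7 and 14.3 to 18.4 normalized counts for 6 leukocyte markers, 69.2 to 76.5 and 13.2 to 21.7 for 4 endothelial markers, 16.7 to 21.5 and 0 to 6.11 for 4 adipocyte markers, and 5.85 to 9.75 and 0 to 1.02 for 4 epithelial markers. Ptprc, Kdr, Adipoq and Epcam held at most 1 count in any library, but other markers of the same lists held more. Cdh5 of endothelium had 11, 8 and 3 counts with TNF-α and 8, 3 and 9 with EMO, and Tek had 13, 7 and 18, and 4, 9 and 2. Csf1r of leukocytes had 5, 3 and 4, and 2, 1 and 0, and Krt19 of epithelium had 3, 8 and 5, and 0, 1 and 0. Single markers moved, namely Vwf of endothelium (54, 56 and 54 counts with TNF-α and 9, 2 and 2 with EMO), Cidec of adipocytes (15, 17 and 13, and 0 in each) and Itgam of leukocytes (1, 0 and 0, and 12, 10 and 14). Each of these passed the filter only through the group in which it was high. The part of these markers in the results below was not tested. In bulk RNA, fewer cells of a type and less RNA per cell cannot be told apart.

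The sequences before the transcription start are shown for 3 members whose levels parted between the groups, Plpp3 and Lpar6, which fell, and Enpp3, which rose. RefSeq promoter sequences (rat build GRCr8) matched 6 of the 10 genes, namely Enpp3, Lpar3, Lpar4, Lpar6, Plpp1 and Plpp3. The 250 bases before the start are given 5′ to 3′ on the gene's strand, with matches to 7 short motifs, searched on both strands, in capitals.
Plpp3, chr5:125155750-125155999: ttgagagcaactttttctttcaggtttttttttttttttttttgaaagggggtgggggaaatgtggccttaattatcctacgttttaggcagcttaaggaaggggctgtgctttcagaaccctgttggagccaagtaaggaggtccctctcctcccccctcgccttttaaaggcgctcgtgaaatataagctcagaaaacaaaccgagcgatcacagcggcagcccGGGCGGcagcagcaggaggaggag
Lpar6, chr15:54825860-54826109: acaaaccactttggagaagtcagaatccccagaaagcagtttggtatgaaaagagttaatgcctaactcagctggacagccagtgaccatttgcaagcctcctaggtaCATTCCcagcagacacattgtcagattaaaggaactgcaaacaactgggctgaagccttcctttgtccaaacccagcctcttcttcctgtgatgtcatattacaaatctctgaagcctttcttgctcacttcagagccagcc
Enpp3, chr1:22382739-22382988: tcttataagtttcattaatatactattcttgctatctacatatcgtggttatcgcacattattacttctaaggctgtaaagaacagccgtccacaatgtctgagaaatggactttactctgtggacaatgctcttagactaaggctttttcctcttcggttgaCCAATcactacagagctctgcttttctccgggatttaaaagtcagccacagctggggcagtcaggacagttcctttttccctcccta
In Plpp3 the capitals are a GC box (GGGCGG) starting 24 bases before the start, a motif in 30.5% of 33469 rat promoters of the same length. In Lpar6 they are a TEAD motif (GGAATG, here on the other strand) at 142 bases, in 12.1% of promoters, and in Enpp3 a CCAAT box (CCAAT) at 87 bases, in 34.0% of promoters. A loose NF-κB pattern (3 G, any 5 bases, 2 C, in 42.3% of promoters), the AP-1 pattern TGANTCA (6.34%) and the TATA box TATAAA (12.9%) matched in none of the 6 promoters, and the core of the aryl hydrocarbon receptor site, GCGTG (25.9%), matched in Lpar3. The GC content of the windows was 49.6% for Plpp3, 46.0% for Lpar6 and 41.6% for Enpp3. No motif was shared by the 3 windows, and a match is a description of these letters only.

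Of the ENPP enzymes, Enpp2 and Enpp1 were lower and Enpp3 was higher with EMO. Enpp2 (ENSRNOG00000004089) lies on chromosome 7 from 94480396 to 94563001 on the minus strand (Rnor_6.0, as for all coordinates of the deposited genes). It had 6551, 6820 and 6002 counts with TNF-α and 0, 0 and 1 with EMO. The groups were apart by the whole measurable range, with 6308 ± 415 normalized counts without EMO (SD, n = 3) and a single count in all 3 TNF-α+EMO libraries. The ratio of the groups was 18471, with an exact 95% counting interval of 3315 to 729612, so its size above the lower bound is set by 1 count. A total of 489 genes reached 10 counts in each library with TNF-α and stayed at 3 or fewer in each with EMO, and among them Enpp2 had the second highest level in the TNF-α group, after complement C3 (17869 normalized counts) and just before Chi3l1 (5996), while the median of the 489 was 37.8.

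Enpp1 makes pyrophosphate from extracellular ATP, an inhibitor of mineral deposition, and does not make LPA. It lies on chromosome 1 from 21748261 to 21813371 on the plus strand. Its counts were 2953, 3092 and 2899 with TNF-α and 206, 153 and 162 with EMO. In normalized counts this was 2912 ± 96.5 and 178 ± 30.1 (SD, n = 3 each), a fall (log2FC -4.03, SE 0.11, adjusted p = 6.5e-11, edgeR), or 16.4-fold lower. Enpp3, known on basophils and mast cells as a marker and as an enzyme that degrades extracellular ATP, lies on the same strand from 21613148 to 21684480. It had 219, 208 and 194 counts with TNF-α and 564, 457 and 405 with EMO, so the lowest library with EMO was well above the highest without. The level rose from 202 ± 12.9 to 487 ± 86.3 normalized counts (log2FC 1.27, SE 0.13, adjusted p = 5.3e-06, edgeR), or 2.41-fold with a 95% interval of 1.96 to 2.96. Of the 6 leukocyte markers, Itgam was also higher with EMO, but it passed the filter on low counts only through the TNF-α+EMO group. Csf1r went the other way (5, 3 and 4 counts with TNF-α and 2, 1 and 0 with EMO), as did Adgre1 (1, 0 and 3, and 0 in each). Aif1 and Cd3e held at most 4 counts and overlapped between the groups. Ptprc held 1 count in 1 library and none in the others. The part of such cells in the rise of Enpp3 was not tested. In both Enpp1 and Enpp3 the TNF-α+EMO replicate 1 was the highest of its group.

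Enpp3 and Enpp1 are neighbours on chromosome 1, 63780 bases apart, and yet they went in opposite directions. Genes near them on the chromosome, named after their values were seen, were also read. Ccn2, a matrix-associated growth factor known as connective tissue growth factor, lies on the minus strand with a gap of 38288 bases to Enpp1. It fell from 11149 ± 522 to 65.2 ± 23.4 normalized counts (log2FC -7.41, SE 0.18, adjusted p = 7.1e-10, edgeR). Med23, a subunit of the Mediator complex, lies on the minus strand with a gap of 26237 bases to Enpp3 and did not pass the test (log2FC -0.12, SE 0.08, adjusted p = 0.18, edgeR). Arg1, arginase, is 1901 bases from Med23 and had 377, 404 and 426 counts with TNF-α and 2, 2 and 3 with EMO. Along the chromosome, the rise of Enpp3 thus stood between Med23, which was not a DEG, and the falls of Enpp1 and Ccn2.

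**Figure D1:**
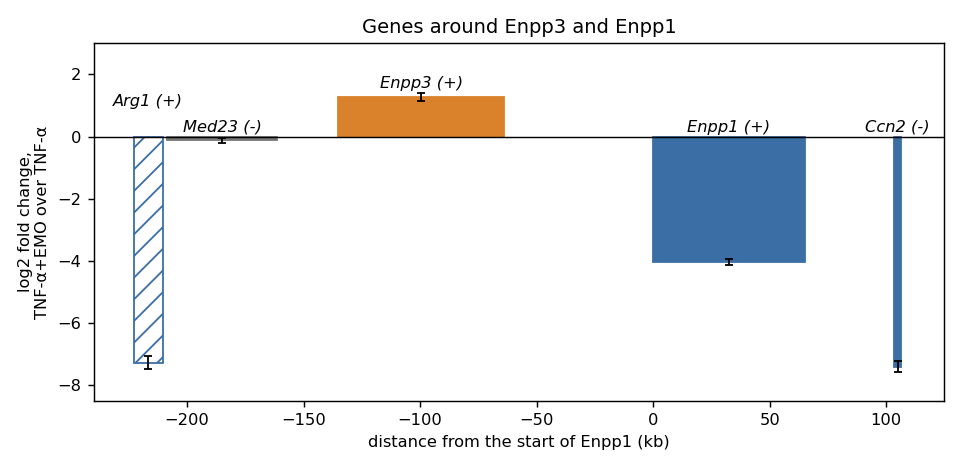
Log2 fold change (TNF-α+EMO over TNF-α, bars drawn over each gene's span, error bars are the SE of edgeR's fit) against the distance in kilobases from the start of Enpp1, with the strand after each name. Enpp3 is the only one of these 5 genes above 0 (1.27), between Med23 (-0.12, grey, not a DEG) and Enpp1 (-4.03). The hatched bar, Arg1, has at most 3 counts in each TNF-α+EMO library, so its height depends on the small count edgeR adds.

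The 5 receptors described here were led by Lpar1 in both groups. Lpar1 couples to several G protein classes and is widely expressed in mesenchymal cells. It lies on chromosome 5 from 75557042 to 75676584 on the minus strand. Its counts were 1260, 1225 and 1307 with TNF-α and 61, 65 and 58 with EMO. Both groups were tight and far apart. The level fell from 1235 ± 39.4 to 62.8 ± 3.72 normalized counts (log2FC -4.29, SE 0.10, adjusted p = 2.2e-11, edgeR), or 19.6-fold lower.

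Lpar6, a receptor of the P2Y-related branch of the family known for its part in hair growth, was the other receptor with enough counts to test. It had 50, 46 and 46 counts with TNF-α and 3, 0 and 0 with EMO. The level was 46.2 ± 2.43 normalized counts with TNF-α, and the ratio of the groups was 45.1 with an exact 95% counting interval of 15.1 to 221. Lpar6 passed the filter on low counts (10 counts in 3 libraries) only through the TNF-α group, so its fall is described without a p. Lpar6 lies on chromosome 15 from 55126953 to 55128761 on the plus strand, inside the span of Rb1 on the minus strand, and without a stated strand setting reads of the 2 genes cannot be told apart. Rb1 had 247, 256 and 258 counts with TNF-α and 1009, 940 and 749 with EMO, so it moved the opposite way.

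The other 3 receptors had too few counts to test. Lpar3, of the same branch as Lpar1 and known in the uterus, had 0, 0 and 1 counts with TNF-α and 4, 3 and 5 with EMO. The groups did not overlap, at a ratio of 12.6 with an exact 95% counting interval of 1.86 to 538, but the level with EMO was 4.10 ± 1.01 normalized counts and so just over the floor of 3 counts. With no filter on low counts Lpar3 was tested and was a DEG (log2FC 3.23, SE 1.24, adjusted p = 0.028, edgeR). Lpar2 had 1, 0 and 0 counts with TNF-α and 2, 1 and 0 with EMO, which is at or under the floor in both groups. Lpar4 had 0 counts in each of the 6 libraries, which allows up to 3 counts in each. A rise of Lpar2 or Lpar4 below this depth was not detectable.

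The 2 lipid phosphatases differed in their response. Plpp3, an integral membrane enzyme that dephosphorylates LPA and sphingosine 1-phosphate outside the cell, lies on chromosome 5 from 124690214 to 124765498 on the plus strand. Its counts were 3118, 3046 and 2899 with TNF-α and 4, 1 and 6 with EMO. The level fell from 2951 ± 118 to 3.75 ± 2.56 normalized counts, and no library of one group came near the other. The ratio of the summed counts was 786, with an exact 95% counting interval of 439 to 1574. Plpp3, too, passed the filter on low counts only through the TNF-α group, and its fall is described without a p. It ranked 63 of the 13614 genes tested by its log2 fold change, counted from the lowest, where Enpp2 ranked 4.

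Plpp1, an enzyme of the same family and activity, had 578, 520 and 600 counts with TNF-α and 477, 498 and 533 with EMO, and the groups overlapped. Its levels were 553 ± 40.6 and 515 ± 25.9 normalized counts (log2FC -0.10, SE 0.09, adjusted p = 0.30, edgeR). The 95% interval of the fold ran from 0.814 to 1.07, so the difference was not larger than the spread between libraries, and a change within this interval is possible. With library totals as the only scaling Plpp1 passed the adjusted p (log2FC -0.22, adjusted p = 0.041, edgeR). Plpp1 lies on chromosome 2 from 44664124 to 44726689 on the plus strand and overlaps Mtrex on the other strand, and reads of this neighbour (1347 to 1914 counts) may be counted for it.

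Of the 6 tested genes other than Enpp2, 4 were DEGs and lower (Enpp1, Lpar1, Lpar6 and Plpp3), beside 27.8% of all genes, 1 was a DEG and higher (Enpp3), beside 19.5%, and 1 was not a DEG (Plpp1). Lpar2, Lpar3 and Lpar4 did not pass the filter on low counts. Since Lpar6 and Plpp3 passed it only through the group in which they were high, the count is a description, and supports nothing about the genes as a group.

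**Figure D2:**
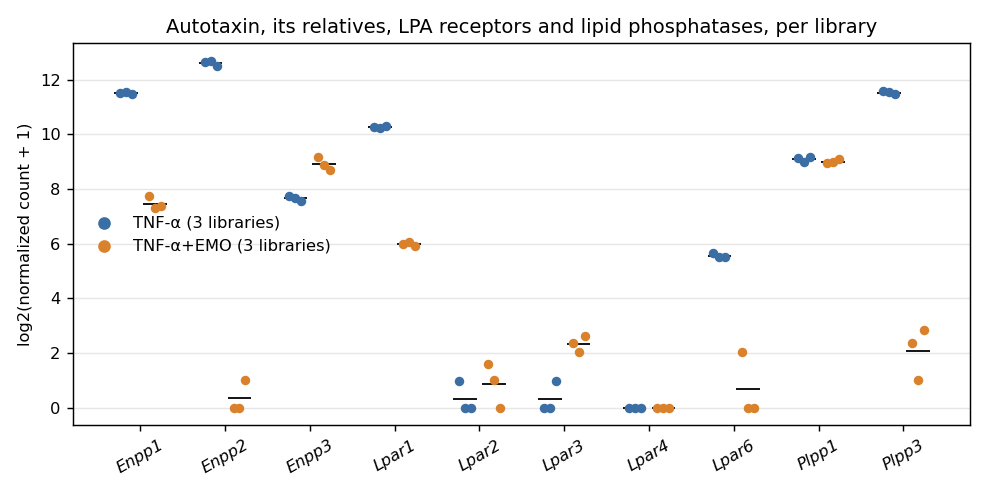
Log2 of the normalized count plus 1 (y axis) for each of the 10 genes in the 3 TNF-α libraries (blue) and the 3 TNF-α+EMO libraries (orange). Points are libraries and bars are group means of the plotted values. Enpp2 and Plpp3 drop from the top of the plot to its lower part, Enpp3 is higher in every TNF-α+EMO library, the groups overlap in Plpp1, and Lpar4 is at 0 throughout.

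To compare genes with each other, levels were expressed per length, as TMM-scaled CPM per kilobase of deposited gene length. In the TNF-α group the order was Enpp2 (138 ± 9.10), Plpp3 (55.8 ± 2.24), Enpp1 (41.4 ± 1.37), Plpp1 (21.8 ± 1.60), Lpar1 (21.8 ± 0.70), Enpp3 (4.25 ± 0.27) and Lpar6 (1.49 ± 0.08), with Lpar2, Lpar3 and Lpar4 below 0.03 in every library. Each of the first 7 was apart from the next in all 3 libraries, except that Plpp1 and Lpar1 overlapped. Enpp2 was higher than 95.9% of the genes tested on this scale, Plpp3 than 87.8%, Enpp1 than 82.9% and Lpar1 than 68.4%. In the TNF-α+EMO group the order was Plpp1 (20.3 ± 1.02), Enpp3 (10.2 ± 1.81), Enpp1 (2.53 ± 0.43) and Lpar1 (1.11 ± 0.07), each apart from the next, followed by 6 genes at 0.116 or less whose neighbours overlapped. Among the 10 genes described here, Plpp1 thus led with EMO at nearly its level without, followed by Enpp3.

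The make-up of each group of genes changed unevenly. Of the summed level per kilobase of the 3 ENPP enzymes, Enpp2 took 74.4% to 75.6% without EMO and 0% to 0.203% with it, and Enpp3 took 2.21% to 2.42% and 78.6% to 81.5%. The share of Enpp1 was 22.5% ± 0.671 with TNF-α and 19.8% ± 1.39 with EMO (SD, n = 3 each). The sum itself was 184 ± 10.6 with TNF-α and 12.8 ± 2.20 with EMO. These shares include the gene chosen for its fall and were not tested.

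For the 5 receptors described here the sum per kilobase was 23.3 ± 0.710 with TNF-α and 1.23 ± 0.107 with EMO. Lpar1 remained the main one of these 5. The share of Lpar1 was 93.2%, 93.6% and 93.9% with TNF-α and 83.5%, 94.0% and 93.2% with EMO, so the groups overlapped (exact permutation test, two-sided p = 0.70, adjusted p = 0.70 over 5 shares compared). Without TNF-α+EMO replicate 1, the library with all 3 counts of Lpar6, the mean share of Lpar1 with EMO minus that without was 0.0505 percentage points, in place of -3.32 with all libraries. The share of Lpar3 was 0% to 0.0608% with TNF-α and 3.67% to 6.80% with EMO, which rests on 12 counts (exact permutation test, two-sided p = 0.10, adjusted p = 0.25). The share of Lpar6 was 6.02% to 6.73% with TNF-α and 7.48%, 0% and 0% with EMO (exact permutation test, two-sided p = 0.40, adjusted p = 0.50). Lpar2 took 0% to 4.39% in any library (exact permutation test, two-sided p = 0.40, adjusted p = 0.50).

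For the phosphatases, Plpp1 was 27.9%, 26.3% and 30.2% of the summed level of Plpp1 and Plpp3 with TNF-α and 99.6%, 99.9% and 99.5% with EMO. The difference of 71.5 percentage points was far larger than the spread between replicates, but with 3 libraries against 3 an exact permutation test cannot go below 0.1 (two-sided p = 0.10, adjusted p = 0.25). Plpp1 itself overlapped between the groups, so this shift in share restates the fall of Plpp3. It adds no evidence beyond that fall, which is described without a p. The sum was 77.6 ± 2.25 with TNF-α and 20.4 ± 1.05 with EMO.

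**Figure D3:**
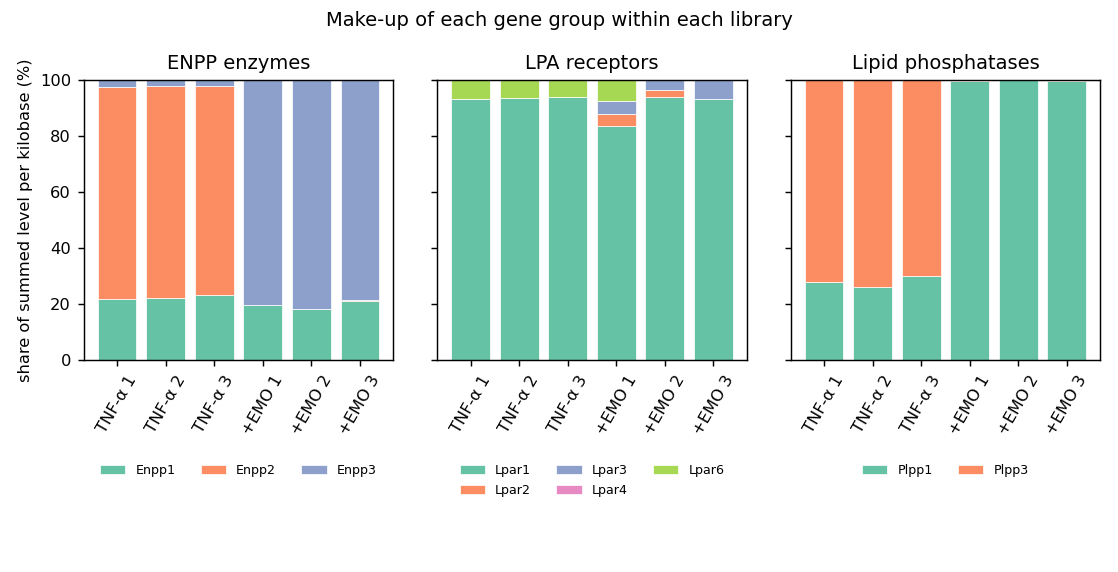
Share in percent of the summed level per kilobase (stacked to 100%) of each ENPP enzyme (left), LPA receptor (middle) and lipid phosphatase (right), 1 bar per library, 3 with TNF-α and 3 with EMO. Enpp2 takes 74.4% to 75.6% of the first panel with TNF-α and Enpp3 78.6% to 81.5% with EMO. Lpar1 leads the 5 receptors shown in all 6 libraries. The right panel holds only Plpp1 and Plpp3, without Plpp2 and Plpp5, and Plpp1 takes most of it with EMO.

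The genes whose levels over the 6 libraries were nearest to those of Enpp2 were sought by Euclidean distance of log2(normalized count + 1), a measure over 2 groups of 3 libraries. The nearest were Chi3l1 (chitinase 3 like 1, distance 1.45), Cx3cl1 (a chemokine, 2.21), Il33 (interleukin 33, 2.27), Cxcl12 (a chemokine, 2.29) and Ccl5 (a chemokine, 2.52). Chi3l1 had 6428, 6275 and 5710 counts with TNF-α and 1, 0 and 0 with EMO, and the others had 2504 to 3297 with TNF-α and at most 1 in any library with EMO.

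The rest of the LPA pathway was read from lists of genes around the members. Besides Enpp1, Enpp2 and Enpp3, only Enpp5 of the ENPP family had enough counts to test, with 807 ± 63.6 normalized counts with TNF-α and 869 ± 117 with EMO (log2FC 0.11, SE 0.10, adjusted p = 0.36, edgeR). Enpp4, Enpp6 and Enpp7 had at most 1 count in any library. Lists are described by their number of DEGs and their median log2 fold change, beside a median of -0.01 over all genes tested, and none was tested as a set. Of the 58 genes tested in all lists, 7 (Acta2, Actg2, Tagln, S1pr3, Sgpp2, Abcc6 and Adora1) passed the filter on low counts only through the group in which they were high, so they had to differ, and no p is given for them.

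LPA is also made by routes without autotaxin, among them from phosphatidic acid, by acylation of glycerol 3-phosphate, by other lysophospholipases and by phosphorylation of monoacylglycerol. Of 11 genes tested on such routes, 2 (18.2%) were DEGs and lower, 2 (18.2%) higher and 7 neither, beside 27.8% and 19.5% of all genes. With so few genes, these shares are a description only. The median log2 fold change was 0.41. Pld1, a phospholipase D that makes phosphatidic acid, fell from 2020 ± 87.3 to 217 ± 43.3 normalized counts (log2FC -3.22, SE 0.13), and Pla2g4a, the cytosolic phospholipase A2, fell from 1143 ± 28.2 to 466 ± 28.5 (log2FC -1.29, SE 0.08). Gpat3, which acylates glycerol 3-phosphate to LPA inside the cell, rose from 176 ± 21.1 to 1318 ± 7.05 normalized counts (log2FC 2.91, SE 0.10), and Pla2g6, a calcium-independent phospholipase A2, rose from 825 ± 46.4 to 1946 ± 77.5 (log2FC 1.24, SE 0.07). The largest adjusted p of these 4 was 4.6e-08 (edgeR). The other 7, such as Agk and Gpat4, had log2 fold changes between -0.59 and 0.63.

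Of 9 genes tested that remove LPA or acylate it to phosphatidic acid, 1 (11.1%) was a DEG and lower, 1 (11.1%) higher and 7 neither. The shares of all genes were 27.8% and 19.5%, and the median of the list was 0.03. Plpp5, another lipid phosphatase, rose from 559 ± 29.7 to 1595 ± 32.6 normalized counts (log2FC 1.51, SE 0.07, adjusted p = 6.1e-09, edgeR). Plpp2, of the same enzyme family as Plpp1 and Plpp3, had 660 ± 38.9 and 566 ± 56.5 (log2FC -0.22, SE 0.09, adjusted p = 0.048, edgeR). Agpat5, an LPA acyltransferase, fell from 1323 ± 65.3 to 489 ± 14.5 (log2FC -1.44, SE 0.08, adjusted p = 1.3e-08, edgeR). Among the tested phosphatases Plpp1, Plpp2, Plpp3 and Plpp5, only Plpp3 was called as a lower DEG. Plpp3 passed the filter on low counts only through the TNF-α group, so its call is a description and does not set it apart by a test.

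Of 8 G protein α subunits through which LPA receptors can signal, 2 were DEGs and lower, none was higher and 6 were neither. Among all genes 27.8% were lower and 19.5% higher, so lower DEGs were no more frequent in this list than among all genes. The median of the list was -0.48. Gnai1 fell from 731 ± 44.5 to 335 ± 21.3 normalized counts (log2FC -1.13, SE 0.09, adjusted p = 4.3e-07, edgeR) and Gnaq from 611 ± 10.9 to 271 ± 34.0 (log2FC -1.17, SE 0.10, adjusted p = 1.1e-06, edgeR). Gna12 and Gna13, α subunits of a class of their own, had log2 fold changes of -0.76 (SE 0.06) and 0.46 (SE 0.07).

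SRF, a transcription factor, and YAP, a transcriptional co-activator, are regulators that LPA is known to switch on. Of 14 tested factors and targets, 9 (64.3%) were DEGs and lower, 1 (7.14%) higher and 4 neither, beside 27.8% and 19.5% of all genes. The median was -1.39. These counts include Acta2 and Tagln (lower) and Actg2 (higher), which passed the filter on low counts only through the group in which they were high. The counts are therefore a description. Acta2, smooth muscle actin, had 474, 490 and 442 counts with TNF-α and 1, 0 and 0 with EMO, a ratio of 1341 with an exact 95% counting interval of 240 to 52986. Ccn2 is given above as the neighbour of Enpp1. Reads of the near-identical actin genes Acta2 and Actg2 may be split between them. The gene that rose was Actg2, which had 0, 9 and 2 counts with TNF-α and 18, 17 and 23 with EMO.

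The sphingosine 1-phosphate pathway is the sister lysophospholipid system. Of 7 genes tested, 2 (28.6%) were DEGs and lower, 4 (57.1%) higher and 1 neither, beside 27.8% and 19.5% of all genes. The median was 1.35. These counts include S1pr3 (lower) and Sgpp2 (higher), which passed the filter on low counts only through the group in which they were high. They are therefore a description. S1pr2 fell from 1504 ± 75.8 to 113 ± 18.5 normalized counts (log2FC -3.73, SE 0.11, adjusted p = 2.1e-10, edgeR), and S1pr3 had 19, 20 and 18 counts with TNF-α and 0 in each library with EMO, at least 6.04-fold lower against the floor of 3 counts per library. Both sphingosine kinases were higher, Sphk1 with a log2FC of 1.46 (SE 0.10) and Sphk2 with 1.35 (SE 0.07). Sgpl1, the lyase, rose from 1812 ± 108 to 5060 ± 224 normalized counts (log2FC 1.48, SE 0.07), and Sgpp2, a phosphatase, had 1, 2 and 0 counts with TNF-α and 40, 43 and 28 with EMO, a ratio of 38.8 with an exact 95% counting interval of 12.9 to 191. Sgpp1, another phosphatase of this lipid, was lower without being a DEG, at 794 ± 23.8 and 600.0 ± 82.1 normalized counts (log2FC -0.40, SE 0.10, adjusted p = 0.0037, edgeR). The largest adjusted p of S1pr2, Sphk1, Sphk2 and Sgpl1 was 2.0e-07 (edgeR).

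Enpp1 belongs with genes of pyrophosphate and extracellular purines. Of 8 such genes tested, 5 (62.5%) were DEGs and lower, 1 (12.5%) higher and 2 neither, beside 27.8% and 19.5% of all genes. The median was -1.49. The lower genes include Abcc6 and Adora1, which passed the filter on low counts only through the TNF-α group, so the counts are a description. Ankh, which releases pyrophosphate or its precursor ATP from the cell, fell from 2946 ± 180 to 629 ± 48.2 normalized counts (log2FC -2.23, SE 0.08), and Abcc6, a transporter needed for ATP release, had 23, 25 and 40 counts with TNF-α and 0, 0 and 2 with EMO, a ratio of 42.0 with an exact 95% counting interval of 11.3 to 352. Nt5e, which makes adenosine from AMP, fell from 58.6 ± 14.6 to 15.4 ± 2.12 normalized counts. The adenosine receptors Adora2b (log2FC -1.07, SE 0.17) and Adora1 (13, 24 and 17 counts with TNF-α and 0 in each library with EMO, at least 5.72-fold lower) were lower too. Phospho1, a phosphatase of mineralizing cells, rose from 192 ± 11.4 to 889 ± 25.7 normalized counts (log2FC 2.21, SE 0.09). The largest adjusted p of Ankh, Nt5e, Adora2b and Phospho1 was 0.00013 (edgeR).

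**Figure D4:**
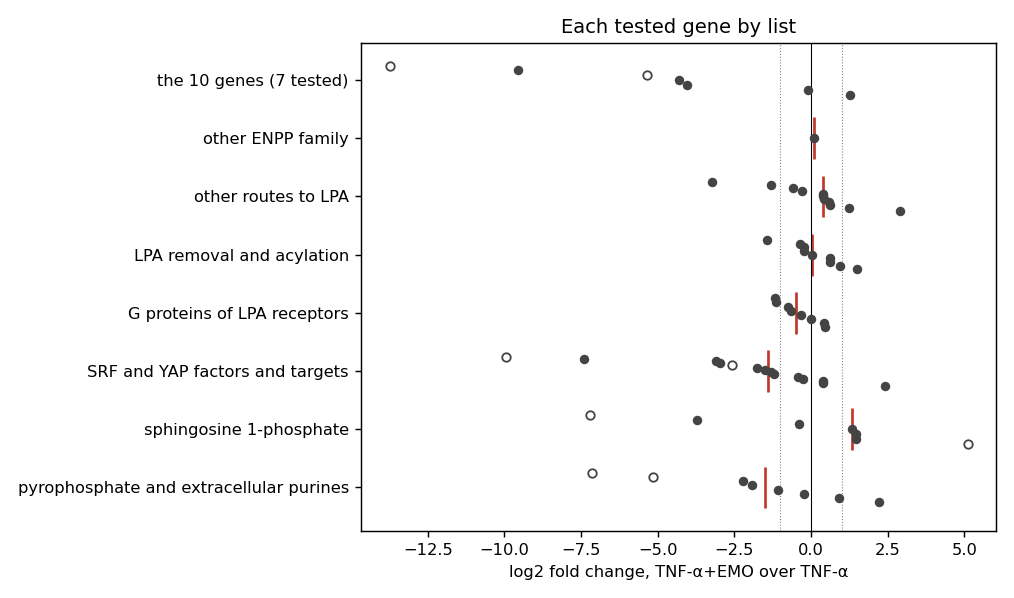
Log2 fold change (x axis, TNF-α+EMO over TNF-α) of each tested gene, 1 row per list, with the 7 tested genes of the 10 on top. Open circles have 3 counts or fewer in every library of one group, so their position depends on the small count edgeR adds. Red lines are list medians (for example 1.35 for sphingosine 1-phosphate and -1.39 for SRF and YAP), the solid line is 0 and the dotted lines are -1 and 1.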

How the data were processed

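Counts per gene were read for 6 RNA-seq libraries, grouped by the treatment given in the labels. The authors selected poly(A) RNA and sequenced it in pairs, with FastQC and Trimmomatic named in the submitters' processing notes, and aligned reads to Rnor_6.0 with HISAT2. The authors deposited raw counts, without normalization, and FPKM values, which were used only as an alternative scale for levels. The counting program, strand setting and annotation version are not given in the sources used here. The table also holds the authors' own group means, log2 fold changes and p-values, which were not used.

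A gene was tested if 3 or more libraries held 10 or more counts (13614 genes). TMM scaling was followed by the robust quasi-likelihood F test of edgeR 4.0.16 (R 4.3.3), with Benjamini-Hochberg adjustment over these genes. The SE was derived from the log2FC and F. Normalized counts are scaled to the mean effective library size. A group with at most 3 counts in every library is at the floor. If it held no count, a bound against 3 counts per library is given, and otherwise for 1 to 3 counts the ratio with an exact (Clopper-Pearson) 95% interval. Intervals and floors cover counting error only. DESeq2 1.42.0 and limma 3.58.1 were alternatives. The fits were tested on simulated counts.

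The members and lists were chosen with earlier results of these data known. The genes named are the members, up to 2 DEGs with the largest fall and 2 with the largest rise per list at a mean of at least 50 normalized counts, and the 5 genes nearest to Enpp2. Other list genes, and the neighbours of Enpp1 and Enpp3, were named after their values were seen. Of 78 list genes, 2 were not analysed here, and another list is not reported here. The alternatives were other scalings, filters and tests, the replicate block, leaving out each library and, added after seeing the data, no fold change threshold.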

Additional observations from a re-analysis of the deposited data

How the results depend on the processing

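With 3 libraries per group, outlying libraries cannot be tested for, and levels near 3 counts (Lpar2, Lpar3, Lpar4, and Enpp2 and Lpar6 with EMO) are limited by depth. Under the 14 alternative fits, the log2 fold changes ranged from -4.18 to -3.95 for Enpp1, 1.12 to 1.37 for Enpp3, -4.41 to -4.26 for Lpar1 and -10.10 to -9.14 for Plpp3, and those of Lpar6 from -8.55 to -4.80 over 13 fits (it was not tested at a minimum of 50 counts), the lowest without TNF-α+EMO replicate 1, which held its 3 counts with EMO. The calls of Enpp1, Enpp3 and Lpar1 did not change at an adjusted p under 0.05 by edgeR, DESeq2 or limma. Lpar6 and Plpp3 passed the filter on low counts only through the TNF-α group, so no p is given for them. Plpp1 passed with library totals alone (log2FC -0.22, adjusted p = 0.041), a scaling that moved the median of all genes from -0.01 to -0.12, and its adjusted p was 0.14 to 0.60 in the other 13. With no filter on low counts, that median was -0.13, Lpar3 was tested and was a DEG (log2FC 3.23, adjusted p = 0.028, edgeR), so 2 of the 10 genes in place of 1 were higher DEGs, and 2 pyrophosphate and purine genes in place of 1 were higher. At a minimum of 50 counts, the lower DEGs were 1 in the sphingosine 1-phosphate list and 2 in the pyrophosphate and purine list, and 0 genes of the SRF and YAP list were higher, since fewer genes were tested. With no fold change threshold, 5642 of all genes were lower and 5366 higher, or 41.4% and 39.4% in place of 27.8% and 19.5%. The genes that were lower were then 3 for LPA removal and 5 for G proteins, and those that were higher were 7 for other routes to LPA, 4 for LPA removal, 2 for G proteins, 2 for SRF and YAP and 2 for pyrophosphate and purines. The share of Lpar1, -3.32 percentage points with EMO, ranged from -5.20 to 0.0505 when 1 library was left out, and was 0.0505 without TNF-α+EMO replicate 1. Deposited FPKM differs from the scale used here only by a factor per library, so shares and the order of genes within a library could not change. The order of the group means did not change with it.

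The replicate numbers are shared by the groups in the labels, but the correlation of deviations of same-numbered libraries was 0.02, -0.01 and 0.07, so they were not taken as pairs. With the replicate block, 4 of the 6 tested genes other than Enpp2 were lower DEGs and 1 higher, as without it. The 4 include Lpar6 and Plpp3, so this count is a description. The log2 fold change was -4.04 for Enpp1, 1.26 for Enpp3 and -9.57 for Plpp3.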
